A study of Mus musculus with 9 samples.

Results

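Hsd3b4, Hsd3b5, Cyp4a12b and Slc7a12 are 4 genes tied to steroid metabolism or to sex differences in the mouse kidney, and they were examined in kidneys of young mice, old mice and old mice given 3-hydroxybutyrate (3HB). They were chosen by gene name from 2 deposited tables that together hold 489 distinct genes. All 4 are in the table of 389 genes that the authors called for young against old, and 0 are in the table of 113 genes called for 3HB against old. Both tables list all 9 mice, so each of the 4 genes has a value in every group. The mice were ICR, an outbred stock with no engineered allele, and the methods describe males. The young group was 3 untreated mice of 2 months, the old group 3 untreated mice of 20 months, and the 3HB group 3 mice of 20 months. The 3HB mice had received the sodium salt of 3HB, a ketone body, in drinking water at 1 g/L from the age of 11 months. The methods describe separate purchases of young mice and of older mice, so age and purchase cannot be told apart here. The part of purchase in any difference from the young mice was not tested. Each library came from bulk kidney, in which fewer cells of a type and less RNA per cell cannot be told apart.

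Values are the authors' normalized expression values (TPM or FPKM, neither of which is named), and both units are scaled to transcript length, so levels of different genes can be set side by side. The tables give no read totals, which leaves the depth unknown, and the precision rests on 3 mice in each group. Group values are given as mean ± SD of these 3 mice. Of 11 proximal tubule markers, Keg1 was in the table for age and Lrp2 in that for 3HB. Each is there because it was called for that contrast. Keg1 ran from 1076 to 1637 in young mice, 704.3 to 962.3 in old mice and 857.9 to 1297 in 3HB mice, lower in old than in young mice without overlap (-0.69 in mean log2(value + 1)). Lrp2 ran from 68.6 to 116.6, 87.9 to 105.3 and 143.0 to 154.5 in these groups, higher in 3HB than in old mice without overlap (0.66 on the same scale). The methods paragraph on sequencing names muscle, whereas the sample labels name kidney, and 0 of 8 skeletal muscle markers were in either table. The tables hold called genes only, so a gene outside them has no value here.

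The Hsd3b genes encode 3-beta-hydroxysteroid dehydrogenases. Some members of the family make active steroid hormones, and others, among them the products of Hsd3b4 and Hsd3b5, act mainly as NADPH-dependent reductases of 3-keto steroids such as dihydrotestosterone. Hsd3b5 is best known as a gene of male mouse liver. Cyp4a12b encodes a cytochrome P450 that hydroxylates the end of fatty acids, including arachidonic acid, and the Cyp4a12 genes are known to be raised by androgen in the mouse kidney. Slc7a12 encodes a membrane transporter of small neutral amino acids and is known to be higher in female than in male mouse kidney.

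Hsd3b4 lies at chr3:98499071-98510514 on the minus strand (GENCODE M21, GRCm38), and Hsd3b5 at chr3:98618634-98630252 on the same strand. Between them, at chr3:98552542-98588807, lies ENSMUSG00000095388, named Hsd3b8 in the deposited table and Gm10681 in GENCODE M21. All are protein-coding genes of 1 cluster, which in the order of the chromosome holds Gm4450, Hsd3b4, Hsd3b8, Hsd3b5, Hsd3b2, Hsd3b3, Hsd3b6 and Hsd3b1. In the reference annotation the near copy of Hsd3b4 was Hsd3b8. Both annotated transcripts of Hsd3b4 (1575 and 1610 bases) were the same, base for base, as transcripts of Hsd3b8, and the coding sequences of 1119 bases had 0 differences. Hsd3b5 differed from Hsd3b4 at 54 of 1119 coding bases (95.2% identity), and Hsd3b2 had 81.0% identity with Hsd3b4. Gm4450, which was in neither table, differed from Hsd3b4 at 4 coding bases.

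**Figure D1:**
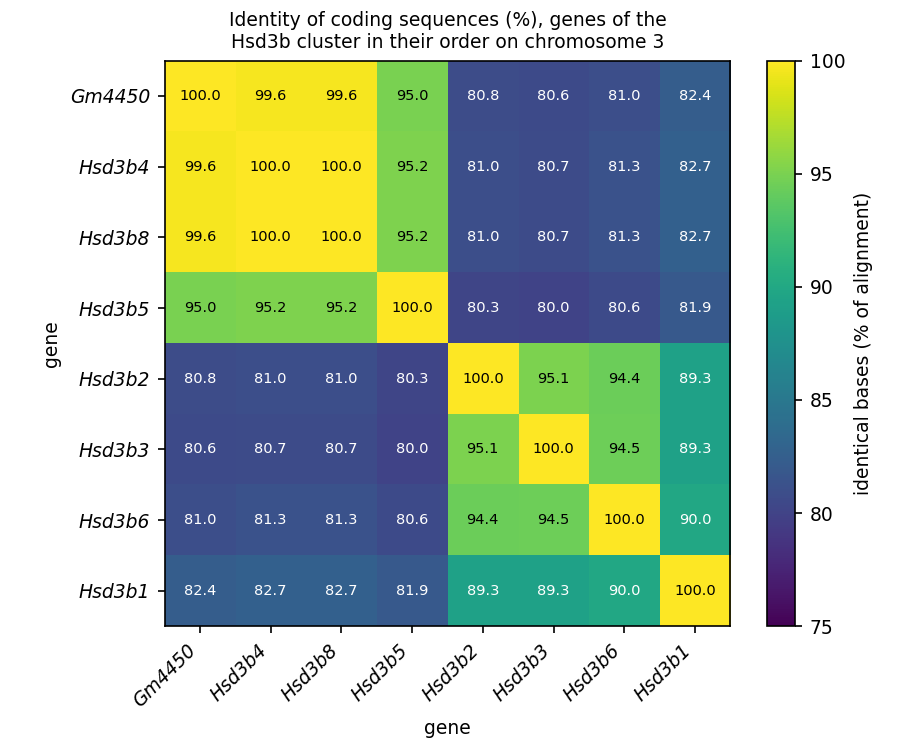
Percent identity of the coding sequences of 8 genes of the Hsd3b cluster in the GENCODE M21 reference, with genes on both axes in chromosome order and each cell giving the identical bases as a percent of the pairwise alignment. Hsd3b4 and Hsd3b8 are at 100%, Hsd3b4 and Hsd3b5 at 95.2%, and Hsd3b4 and Hsd3b2 at 81.0%.

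The stretch of 90 coding bases in which Hsd3b4 and Hsd3b5 differ most, bases 766 to 855 counted from the start codon, shows how the copies can be told apart. Capitals mark the 12 bases of Hsd3b5 that differ from Hsd3b4.
Hsd3b4: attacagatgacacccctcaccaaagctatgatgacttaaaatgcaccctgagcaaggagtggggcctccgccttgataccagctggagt
Hsd3b8: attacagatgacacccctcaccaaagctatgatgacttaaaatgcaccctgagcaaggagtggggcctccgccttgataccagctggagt
Hsd3b5: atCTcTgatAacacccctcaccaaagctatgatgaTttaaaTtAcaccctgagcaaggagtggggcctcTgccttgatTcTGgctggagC

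The reads were 150 bases long. Of the 1461 windows of that length in the longest Hsd3b4 transcript, 1461 were also in a transcript of Hsd3b8 and 974 in a transcript of Gm4450. In the other direction, 1 Hsd3b8 transcript of 1605 bases had 41 of its 1456 windows outside Hsd3b4, and the remaining 2 transcripts had none. Of the 1400 windows of Hsd3b5, 17 (1.21%) were also in another gene, in each case Hsd3b4 and Hsd3b8. A read of 150 bases from a reference Hsd3b4 transcript therefore cannot be assigned to Hsd3b4 rather than Hsd3b8 by its sequence, whereas nearly all windows of Hsd3b5 identify their gene. These counts hold for the C57BL/6J reference, and sequences of the ICR mice were not analysed here.

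The upstream regions were compared as well. The 250 bases before the RefSeq start of Hsd3b4 (the first of 2 starts listed, GRCm38.p6, chr3:98510568-98510817, minus strand) share an unbroken run of 221 bases with the same region of Hsd3b8. With the region of Hsd3b5 (chr3:98645535-98645784, minus strand) the longest shared run was 8 bases. RefSeq starts Hsd3b5 upstream of the GENCODE start (98630252), so this window lies outside the coordinates given above. It is not shown to match the windows of Hsd3b4 and Hsd3b8 in position. The short shared run, and the search of this window below, therefore do not show that the promoters of the copies differ. Both strands of the 300-base promoter windows, which run 50 bases past the start, were searched for AGAACA, the core motif bound by androgen and glucocorticoid receptors, shown here in capitals where it falls in the 250 bases.
Hsd3b4: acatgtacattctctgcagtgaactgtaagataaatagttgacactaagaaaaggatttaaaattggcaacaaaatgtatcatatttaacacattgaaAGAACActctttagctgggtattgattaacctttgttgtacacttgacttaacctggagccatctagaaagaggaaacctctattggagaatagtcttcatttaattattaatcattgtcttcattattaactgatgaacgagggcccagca
Hsd3b5: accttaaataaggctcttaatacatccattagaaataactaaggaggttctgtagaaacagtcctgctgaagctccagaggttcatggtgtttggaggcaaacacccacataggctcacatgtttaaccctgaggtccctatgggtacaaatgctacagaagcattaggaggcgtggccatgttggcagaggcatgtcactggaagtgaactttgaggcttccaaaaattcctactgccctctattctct
The letters were found once in the windows of Hsd3b4, Hsd3b8 and Hsd3b2 and not in that of Hsd3b5. They occurred in 19.0% of all 32851 RefSeq promoter windows, so a match in a single window is common.

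Hsd3b4 was high in young kidneys and listed at 0 in every kidney of 20 months. Hsd3b4 (ENSMUSG00000095143) was at 127.2, 53.2 and 109.4 in young mice 1, 2 and 3, a mean of 96.6 ± 38.6 (SD, n = 3). It was listed at 0 in all 3 old mice and all 3 3HB mice. The young mice stood above all others (two-sided exact permutation test, p = 0.1 against old and against 3HB). The young mice differed from the others in purchase as well as age, and the part of each was not tested. Against groups at 0 the size of the difference rests on the pseudocount. For old minus young and for 3HB minus young it was -6.52 in mean log2(value + 1), and -9.82 with 0.1 in place of 1. The smallest p that 3 mice against 3 allow in this test is 0.1, and the 4 genes had been called for age on these same young and old mice. Over all 489 genes, 3 were above 0 in every young mouse and at 0 in all 6 mice of 20 months, namely Hsd3b4, Gm18736 and Gm16223. Hsd3b4 was the most abundant of the 3, with Gm18736 between 4.09 and 9.24 and Gm16223 between 0.47 and 1.42 in young mice.

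Hsd3b8, the copy with the same reference transcripts, was lower at 20 months but not at 0. Hsd3b8 was at 298.6, 271.5 and 489.0 in young mice, 38.4, 47.7 and 93.7 in old mice and 68.1, 113.0 and 51.9 in 3HB mice. Hsd3b4 made up 29.9%, 16.4% and 18.3% of the summed value of the pair in the young mice and 0% in the others. Since reference Hsd3b4 reads cannot be told from Hsd3b8 reads by sequence, the sum of Hsd3b4 and Hsd3b8 was compared as well, a choice made after the values had been seen. Gm4450, which shares 974 of the 1461 windows of Hsd3b4, has no value in the tables and is not in this sum. How the counting of the authors divided such reads is not given in the sources used here, and whether the 0 of Hsd3b4 at 20 months and its shares of the pair depend on that division was not tested. The sum was 449.7 ± 138.4 for the young mice, 60.0 ± 29.6 for the old mice and 77.7 ± 31.6 for the 3HB mice. The young mean was 7.50 times the old mean, with a difference (old minus young) of -2.95 in mean log2(value + 1) and a standard error of 0.46. The groups did not overlap (two-sided exact permutation test, p = 0.1). The 3HB mice were also below the young mice without overlap, by -2.55 on the same scale (standard error 0.41, two-sided exact permutation test, p = 0.1). Between 3HB and old mice the difference was 0.40 with a standard error of 0.50, and their values overlapped (p = 0.5, two-sided exact permutation test). Leaving out 1 mouse moved this difference between 0.09 (without 3HB mouse 2) and 0.77 (without old mouse 3). Of the 2 proximal tubule markers in the tables, Keg1 was lower in old than in young mice (-0.69 on this scale) and Lrp2 overlapped between them (0.18), and their part in the values of Hsd3b4 and Hsd3b8 was not tested.

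Hsd3b5 showed the opposite direction at a much lower level. Hsd3b5 (ENSMUSG00000038092) was listed at 0, 0.04 and 0 in the young mice. It was at 1.88, 3.11 and 4.58 in old mice 1, 2 and 3, a mean of 3.19 ± 1.35 (SD, n = 3). The 3HB mice were at 3.50, 5.79 and 3.29, a mean of 4.19 ± 1.39 (SD, n = 3). All 6 mice of 20 months stood above all young mice. The difference in mean log2(value + 1) was 2.00 for old minus young (standard error 0.28) and 2.33 for 3HB minus young (standard error 0.21), each with p = 0.1 in the two-sided exact permutation test. Since the young values lie near 0 the size depends on the pseudocount, and with 0.1 in place of 1 these differences were 4.79 and 5.22. The 3HB and old mice overlapped, with a difference of 0.33 and a standard error of 0.35 (two-sided exact permutation test, p = 0.4), and a range of 0.09 (without old mouse 1) to 0.56 (without old mouse 3) when 1 mouse was left out. At 20 months Hsd3b5 was still a small part of the cluster, 1.44% ± 0.490 of the summed value of Hsd3b2, Hsd3b4, Hsd3b5 and Hsd3b8 in the old mice and 1.49% ± 0.321 in the 3HB mice. The sum of Hsd3b4 and Hsd3b5 followed Hsd3b4 in the young mice and Hsd3b5 in the others, at 96.6 ± 38.6, 3.19 ± 1.35 and 4.19 ± 1.39 for young, old and 3HB mice. This sum was lower without overlap in both groups of 20 months, by -4.50 for old minus young (standard error 0.47) and -4.17 for 3HB minus young (standard error 0.44), each with p = 0.1 in the two-sided exact permutation test.

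**Figure D2:**
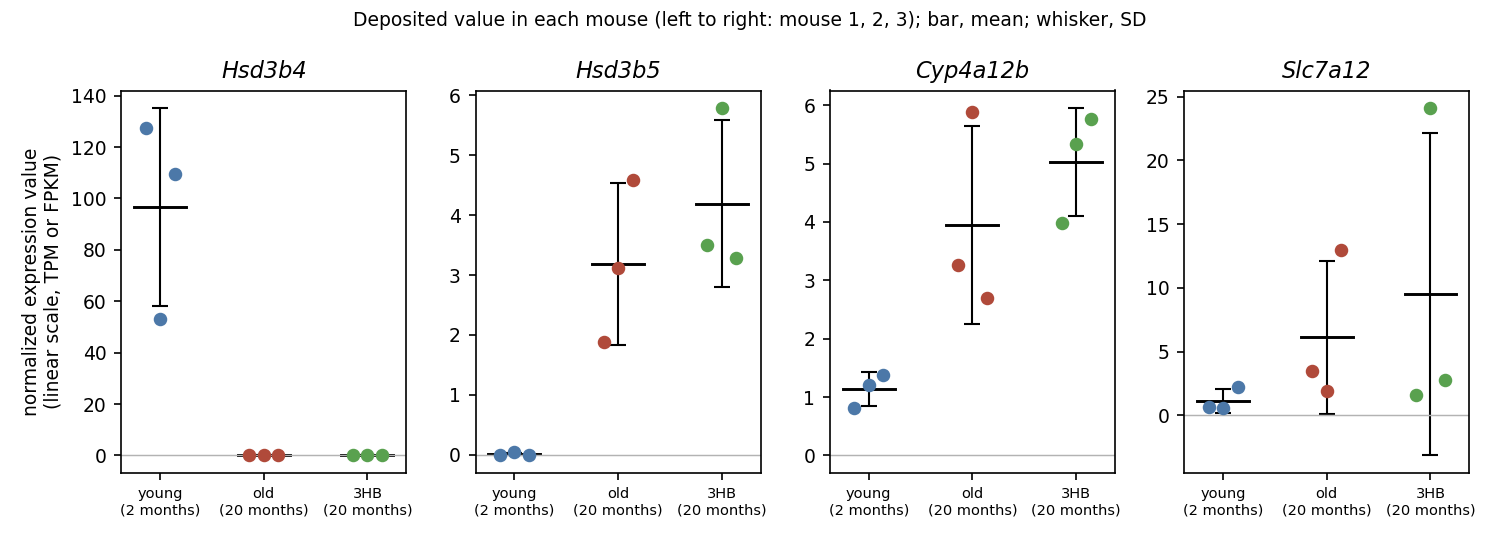
Deposited value of Hsd3b4, Hsd3b5, Cyp4a12b and Slc7a12 in each of the 9 mice (points) by group, with the group mean (bar) and SD (whisker), each panel on its own linear axis in normalized expression units. Hsd3b4 is above 0 in the young mice alone, the young mice are the lowest in Hsd3b5 and Cyp4a12b, and in Slc7a12 old mouse 3 (13.0) and 3HB mouse 2 (24.1) stand above the others.

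The remaining gene of the cluster in the table, Hsd3b2, was higher at 20 months, so the 4 Hsd3b genes of the table did not share a direction. Hsd3b2 encodes a 3-beta-hydroxysteroid dehydrogenase of the isomerase type. Hsd3b2 (ENSMUSG00000063730) was at 24.1, 86.4 and 59.8 in young mice, 169.7, 144.0 and 150.8 in old mice and 203.6, 192.6 and 189.7 in 3HB mice. It was the 1 gene of these 4 in which 3HB and old mice did not overlap, with a difference of 0.34 in mean log2(value + 1) and a standard error of 0.08 (two-sided exact permutation test, p = 0.1). Of the 389 genes in its table, 7.20% were higher in 3HB than in old mice without overlap. Lrp2, the proximal tubule marker called for this contrast, was higher in 3HB than in old mice by 0.66, and Keg1 was higher by 0.35 with overlap. The part of either in the value of Hsd3b2 was not tested. Hsd3b2 made up 5.35%, 21.01% and 9.09% of the summed value of the 4 genes in young mice 1, 2 and 3, against 71.8% ± 10.3 and 71.1% ± 8.20 in old and 3HB mice. In young mice Hsd3b8 made up 68.9% ± 4.67 of it, and Hsd3b4 made up 28.3%, 12.9% and 16.6% in mice 1, 2 and 3. The summed value itself was 506.4 ± 132.9, 218.0 ± 28.0 and 277.1 ± 33.3 for young, old and 3HB mice. It was lower in old than in young mice without overlap, by -1.19 on the log2(value + 1) scale (standard error 0.23, two-sided exact permutation test, p = 0.1). For 3HB minus old the difference of the summed value was 0.35 (standard error 0.14), with overlapping mice (p = 0.2, two-sided exact permutation test).

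**Figure D3:**
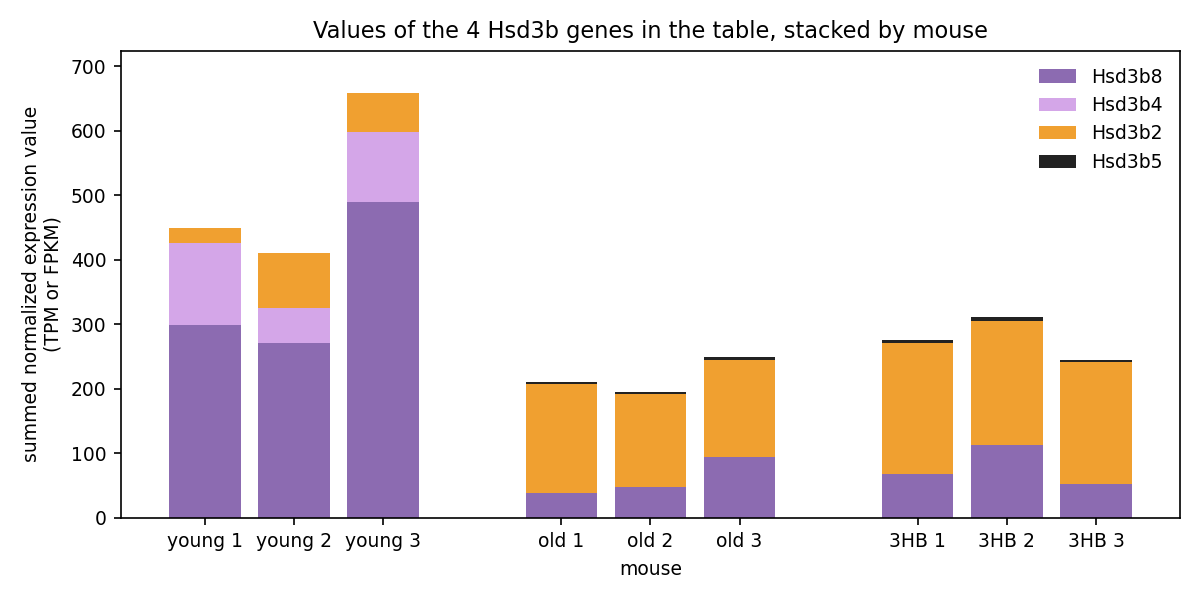
Stacked bars of the deposited values of Hsd3b8, Hsd3b4, Hsd3b2 and Hsd3b5 in each mouse, with mice on the horizontal axis and the summed normalized expression value on the vertical axis, which starts at 0. The young bars reach 411.1 to 658.2 and are mostly Hsd3b8 and Hsd3b4, and the bars at 20 months reach 194.8 to 311.4 and are mostly Hsd3b2.

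Cyp4a12b was higher at 20 months with and without 3HB, at a low level throughout. Cyp4a12b (ENSMUSG00000078597) lies at chr4:115411624-115439034 on the plus strand. It was at 0.81, 1.20 and 1.38 in young mice 1, 2 and 3, a mean of 1.13 ± 0.291 (SD, n = 3). The old mice were at 3.27, 5.88 and 2.69, a mean of 3.95 ± 1.70, and the 3HB mice at 3.99, 5.34 and 5.76, a mean of 5.03 ± 0.925. The young mice stood below all others, and old mouse 2 was the highest of the 9. The old mean was 3.49 times and the 3HB mean 4.45 times the young mean. The difference in mean log2(value + 1) was 1.17 for old minus young (standard error 0.30) and 1.50 for 3HB minus young (standard error 0.18), each with p = 0.1 in the two-sided exact permutation test. Between 3HB and old mice it was 0.33 with a standard error of 0.30, with overlap between the mice (p = 0.4, two-sided exact permutation test). Leaving out 1 mouse moved it between 0.14 (without old mouse 3) and 0.59 (without old mouse 2).

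Cyp4a12b has a near copy, Cyp4a12a (chr4:115299046-115332815, plus strand), which was in neither table. The coding sequences differed at 23 of 1524 bases (98.5% identity), and 582 of the 2246 windows of 150 bases in the Cyp4a12b transcript (25.9%) were also in that of Cyp4a12a. The value of Cyp4a12b is therefore uncertain in part. The 90 coding bases in which they differ most, bases 661 to 750 from the start codon, are given with the 7 bases of Cyp4a12a that differ in capitals.
Cyp4a12b: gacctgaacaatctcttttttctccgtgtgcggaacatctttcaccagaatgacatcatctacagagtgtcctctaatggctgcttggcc
Cyp4a12a: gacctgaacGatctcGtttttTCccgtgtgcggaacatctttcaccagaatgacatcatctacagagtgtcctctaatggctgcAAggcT

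Slc7a12 had a higher mean at 20 months, but the groups overlapped and 2 mice stood far above the rest. Slc7a12 (ENSMUSG00000039710) lies at chr3:14480697-14505830 on the plus strand, far from the Hsd3b cluster, and 0 of its 1592 windows of 150 bases were in another gene. It was at 0.66, 0.57 and 2.25 in young mice, a mean of 1.16 ± 0.945 (SD, n = 3). The old mice were at 3.47, 1.93 and 12.96, and the 3HB mice at 1.64, 24.11 and 2.81. Old mouse 3 and 3HB mouse 2 stood above the other 7 mice, and young mouse 3 was above old mouse 2 and 3HB mouse 1. Within the 3HB group the highest value was 14.7 times the lowest, against 1.44 times for Cyp4a12b and 1.76 times for Hsd3b5. The difference in mean log2(value + 1) was 1.48 for old minus young (standard error 0.75) and 1.63 for 3HB minus young (standard error 1.06), each with p = 0.2 in the two-sided exact permutation test. Without old mouse 3 the first was 0.83, and without 3HB mouse 2 the second was 0.64. With the median over mice in place of the mean they were 1.43 and 1.20. For 3HB minus old the difference was 0.16 with a standard error of 1.21 (two-sided exact permutation test, p = 0.9), and it turned to -0.84 without 3HB mouse 2, -0.02 without old mouse 1 and -0.32 without old mouse 2, and was 0.80 without old mouse 3.

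The genes most like Slc7a12 were chosen by their values in these 9 mice, so that they share its high mice follows from the choice. By Pearson's r of log2(value + 1), among 446 genes with a highest group mean of at least 1, they were Folh1 (0.92), Kcnip2 (0.91) and Fga (0.91). The points of each r share their libraries and the difference between ages, which is also a difference of purchase. Folh1, which encodes a folate hydrolase, was at 69.9 in old mouse 3 and 76.1 in 3HB mouse 2, and between 5.69 and 29.3 in the other mice. Kcnip2, which encodes a potassium channel interacting protein, was at 5.72 and 3.43 in these 2 mice and between 0.28 and 1.05 in the others. Fga, the fibrinogen alpha chain, was at 34.0 and 28.4 in them and between 3.99 and 16.7 in the others. Fga is also 1 of the 3 hepatocyte markers (Fga, Fgb and Fgg, of 12 listed) in the tables. Their summed value ran from 5.24 to 9.22 in the young mice, 14.5 to 66.9 in the old and 8.68 to 42.1 in the 3HB mice, highest in old mouse 3 (66.9) and 3HB mouse 2 (42.1). Fga made up 34.0 and 28.4 of these 2 sums, so their place at the top follows in part from the choice of Fga. Old mouse 1 had a sum of 37.7 with Slc7a12 at 3.47. Alb and the other defining hepatocyte markers were in neither table, and the part of such cells in the values of Slc7a12 was not tested.

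**Figure D4:**
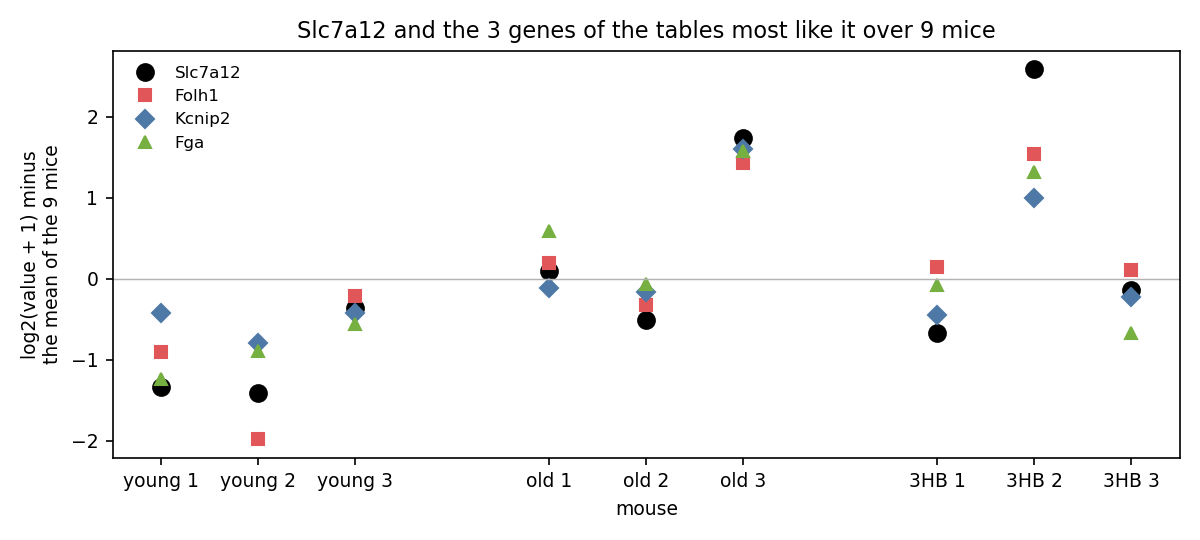
Log2(value + 1) of Slc7a12, Folh1, Kcnip2 and Fga in each mouse minus the mean of the 9 mice (vertical axis), with mice in 3 groups on the horizontal axis and 1 marker shape per gene. In all 4 genes old mouse 3 and 3HB mouse 2 are the 2 highest mice, which follows from how the 3 genes were chosen.

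Genes most like the other members differed from one to the next. For Hsd3b5 they were Ncoa4-ps (r = 0.99), Ighg2c (0.98) and Abcb1a (0.98) over the 9 mice. Abcb1a, which encodes an efflux transporter, was at 0.39 to 0.81 in young mice and 1.83 to 3.80 in the mice of 20 months. For Cyp4a12b they were Reep6 (0.97) and 2 immunoglobulin kappa variable genes (0.96 and 0.95), and for Hsd3b4 they were Gm18736 (0.99), H2-T22 (0.99) and Atp5e (0.98). Atp5e encodes a subunit of mitochondrial ATP synthase. Ncoa4-ps, the immunoglobulin genes and H2-T22 belong to families with near copies, and whether shared sequence affects their values was not examined. Of 11 leukocyte markers 5 were in the table for age (Cd8a, Cd79a, Jchain, Mzb1 and Lyz2), of which 4 had higher means in old mice and Cd8a a lower one (4.22, 0.47 and 5.37 in young mice and 0.33 to 0.80 in old mice). Their summed value was 9.98 to 24.3 in young mice, 97.4 to 386.7 in old mice and 249.6 to 270.1 in 3HB mice, most of it at 20 months from the plasma cell gene Jchain (60.4 to 317.4). The pan-leukocyte marker Ptprc was in neither table. The summed hepatocyte markers were highest in the same 2 mice as Hsd3b5, old mouse 3 and 3HB mouse 2. Other mice differed in order. Old mouse 1 had a sum of 37.7 with the lowest Hsd3b5 at 20 months (1.88). In 3HB mouse 3 the sum was 8.68, within the range of the young mice, with Hsd3b5 at 3.29. The part of leukocytes and hepatocytes in the values of Hsd3b5 and Cyp4a12b was not tested. Among the members themselves, r over the 9 mice was 0.88 for Hsd3b5 with Cyp4a12b and -0.95 for Hsd3b5 with Hsd3b4. For Hsd3b4 no r exists over the 6 mice of 20 months, where it was 0 throughout, so each r of Hsd3b4 rests on the young mice against the rest. Over these 6 mice alone r was 0.15 for Hsd3b5 with Cyp4a12b, 0.74 for Hsd3b5 with Slc7a12 and -0.19 for Cyp4a12b with Slc7a12. Hsd3b5 and Slc7a12 shared their 2 highest mice, 3HB mouse 2 and old mouse 3, whereas the highest mouse for Cyp4a12b was old mouse 2.

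Counted together, 3 of the 4 genes showed no overlap between young and old mice, against 92.5% of the 389 genes of their table. Of these 3, Hsd3b5 and Cyp4a12b were higher in old mice, as were 65.6% of the 389 genes without overlap, and Hsd3b4 was lower, as were 27.0%. The genes are in this table because they were called for this contrast, so the count is a description. In 3HB against young mice, which share the young mice with it, 3 of the 4 showed no overlap, against 82.3% of the 389 genes. Hsd3b5 and Cyp4a12b were higher in 3HB mice, as were 61.2% of the 389 genes without overlap, and Hsd3b4 was lower, as were 21.1%. In 3HB against old mice 0 of the 4 were without overlap (0 with p under 0.05 in the two-sided exact permutation test, which cannot go below 0.1), against 13.4% of the 389 genes. The count was 1 without old mouse 2 (Cyp4a12b) and 1 without old mouse 3 (Hsd3b5). Of the 4 genes, 3 had a higher mean log2(value + 1) in 3HB than in old mice and Hsd3b4 was at 0 in both. Of the 389 genes 56.0% were higher, with a median difference of 0.05.

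**Figure D5:**
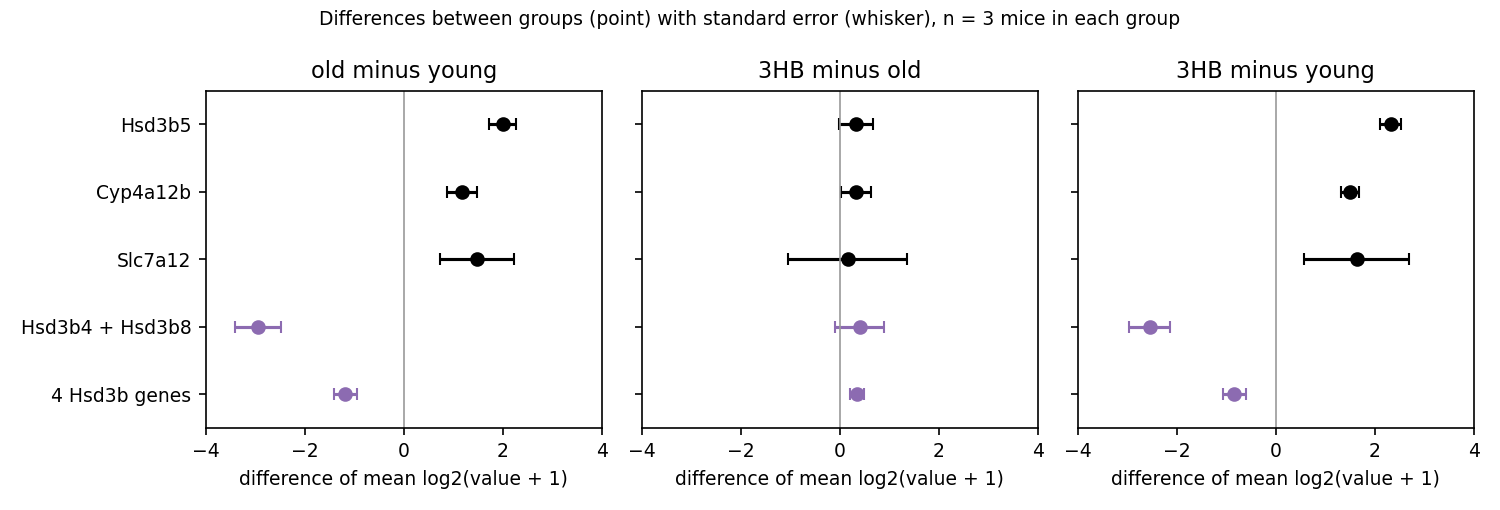
Difference in mean log2(value + 1) between groups (points) with its standard error (whiskers), for 3 single genes and 2 sums of Hsd3b genes, in 1 panel per comparison with n = 3 mice in each group. Hsd3b5 (2.00), Cyp4a12b (1.17) and Slc7a12 (1.48) lie above 0 for old minus young, both Hsd3b sums lie below 0 (-2.95 and -1.19), and all differences between 3HB and old mice lie between 0.16 and 0.40.

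Other genes of steroid metabolism were looked up in lists. Of 46 steroid enzymes listed, 5 were in the table for age (Hsd3b2, Hsd3b4, Hsd3b5, Hsd3b8 and Hsd11b2), of which 2 had higher and 3 lower means at the old age, against 271 higher and 118 lower of the 389 genes. Their median difference (old minus young, log2) was -0.73, against 1.14 for the 389 genes. With Hsd3b4 and Hsd3b8 as 1 summed gene, 2 were higher and 2 lower, and the median turned to 0.44, so its sign rests on counting the copies separately. Hsd11b2, which inactivates glucocorticoids in the distal nephron, was at 128.3, 161.5 and 127.8 in young mice, 67.1, 96.2 and 88.4 in old mice and 105.3, 97.3 and 82.4 in 3HB mice, with both groups of 20 months below the young mice. Ugt1a1, a conjugating enzyme, was the 1 listed gene in the table for 3HB, at 8.89, 5.89 and 0.54 in young mice, 8.26, 8.81 and 5.83 in old mice and 1.06, 4.98 and 2.36 in 3HB mice. The young mice spanned the range of both other groups. The deposited KEGG annotation places 7 genes in steroid hormone biosynthesis, these 6 and Cyp2d12, and of the 6 in the table for age 3 were higher and 3 lower in old mice. Cyp2d12, a cytochrome P450, ranged from 1.63 to 3.39 in young mice, from 10.8 to 56.6 in old mice and from 7.82 to 134.2 in 3HB mice, again with its highest value in 3HB mouse 2, and with old mouse 3 the highest of the old mice.

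Genes known to differ between male and female mouse kidney were also looked up. How many genes the authors tested is not given in the sources used here, so the share of all genes called, which these counts would be read against, is not known. Of 27 androgen-linked or male-biased renal genes, the table for age held Cyp4a12b, which was higher in old mice, and Hsd3b4, which was lower. Of 11 female-biased renal genes it held Slc7a12, which was also the 1 gene held of 10 markers of the last proximal tubule segment. Of 19 genes of the Cyp4 family it held Cyp4a12b, and of 17 genes of the Slc7 and Slc3 families it held Slc7a12, both of them members. In the table for 3HB each of these 5 lists had 0 genes. Of 17 steroid receptors and their cofactors, 0 were in either table, and the same held for 12 markers of adrenal cortex and 5 of adrenal medulla, from the gland that lies on the kidney, for 10 markers of other nephron segments and for 9 of glomeruli and vessels. Levels of genes outside the tables were not analysed here, so the absence of a gene says only that it was not called.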

How the data were processed

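RNA was sequenced as paired-end reads of 150 bases from 9 kidneys, 3 each of young, old and 3HB mice. The submitters' processing notes name CASAVA, HISAT2, StringTie and the build GRCm38, without versions. The authors deposited normalized signal values per gene with 2 decimals, TPM or FPKM, in 2 tables limited to genes they called. The threshold and test behind these calls are not given in the sources used here. No fit across genes or renormalization was possible, so genes were compared 1 at a time.

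Groups were taken from the sample titles. Differences are between group means of log2(value + 1), with standard errors from the SDs of both groups and permutation tests, exact and two-sided, that enumerate all 20 ways to split 6 mice. With 3 mice in each group, p-values measure the spread between these mice only. The members and gene lists were chosen with earlier results of these data known. Named genes are the members, at most 6 genes of each list in a table, by size of the age difference, and the 3 genes most like each member by Pearson's r. Hsd3b8, Cyp2d12 and the genes at 0 in all mice of 20 months were named after their values were seen, and Gm4450 and Cyp4a12a as near copies.

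Identity came from global alignment of GENCODE M21 coding sequences (match 2, mismatch -1, gap opening -5, extension -1), and promoters from RefSeq GRCm38.p6, which held Hsd3b4 and Hsd3b5 of the 4 members. Gene symbols of the table were matched by identifier. The comparison of proteins that had been planned was replaced by coding sequences. The scripts passed 6 of 6 checks on simulated data. Python 3.11.15, numpy 2.4.6, pandas 2.3.3, biopython 1.88 and matplotlib 3.10.9 were used. Alternatives covered the pseudocount (0.1), the median, the ratio of means, a minimum group mean of 1, summed copies, a replicate block and leaving out each mouse.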

Additional observations from a re-analysis of the deposited data

How the results depend on the processing

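Of 201 alternative values of differences, 196 kept their direction. The median of the steroid enzymes turned from -0.73 to 0.44 with Hsd3b4 and Hsd3b8 summed, an alternative chosen after seeing the data. The 4 other values that turned were all of the Slc7a12 difference in 3HB against old mice, at 0.16 in mean log2(value + 1). It turned to -0.23 with the median over mice and ranged from -0.84 (without 3HB mouse 2) to 0.80 (without old mouse 3) when 1 mouse was left out. It was also below 0 without old mouse 1 (-0.02) and without old mouse 2 (-0.32). The number of members without overlap between 3HB and old mice ranged from 0 to 1, with 1 without old mouse 2 or old mouse 3, so that it rests on those mice. Of 30 alternative counts of members without overlap, 22 equalled the main count. The count of 3 of 4 in young against old and in 3HB against young became 2 of 3 with Hsd3b4 and Hsd3b5 merged into 1 sum, which itself did not overlap, and 4 of 4 without young mouse 3, in the first also without old mouse 2 and in the second also without 3HB mouse 1. Permutation p-values could not pass 0.05 under any of these settings, so they do not speak to stability.

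The mice were not treated as paired by replicate number. Correlations of the deviations of same-numbered mice over 450 genes ran from -0.24 to 0.16, and not all were above 0.1. For mice of different numbers they ran from -0.22 to 0.27. Such values cannot show whether same-numbered mice were handled together. With the replicate block the difference of Hsd3b5 was 2.00 for old minus young and that of Cyp4a12b 1.17, with p = 0.25 for each in an exact sign-flip test, the smallest that 3 pairs allow. No p could pass 0.05 with or without the block. Depth is unknown, and values rounded to 2 decimals limit what can be said of Hsd3b5 in young mice.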
